A study of Mus musculus with 4 samples.

Results

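The 41 genes described here are 18 genes that serve S phase, 19 genes that serve mitosis and 4 proliferation genes tied to no single phase. They were chosen by name as a measure of cycling cells, and all 41 were found among the 24418 gene names of the expression values. RNA was sequenced from CD4+ regulatory T (Treg) cells, which had been sorted from spleens and lymph nodes of Foxp3yfpCre mice. These mice carry a YFP and Cre gene driven by Foxp3, the factor that defines Treg cells, in every group, and the study used sex-matched mice aged 8 to 12 weeks. The cells were held for 3 h either with 100 ng/mL thymic stromal lymphopoietin (TSLP), an epithelial cytokine, or with PBS as the control, and each group had 2 libraries (n = 2). No source says whether the 2 libraries of a group came from separate animals or cultures, so the p-values measure the spread between these libraries, which may be technical. The libraries held 11328132 (PBS 1), 10724392 (PBS 2), 11761234 (TSLP 1) and 10271571 (TSLP 2) reads on genes. Values are normalized counts, that is, reads on a gene scaled by the size factor of its library.

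A cell that enters the cycle loads the MCM helicase on replication origins in G1, copies its DNA in S phase with PCNA as the sliding clamp of the polymerases, and then builds the spindle and separates its chromosomes in mitosis. Genes of S phase are driven by E2F factors that bind a characteristic site near the start of the gene, and many genes of mitosis are driven later through a site called CHR (cell cycle genes homology region) together with CCAAT boxes, which MuvB complexes and NF-Y bind. Most T cells in spleen and lymph nodes rest outside the cycle, while part of the Treg pool divides at any time, and Ki-67 (Mki67) is the usual marker of those cells.

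The promoters of the members separated along these lines. RefSeq promoter windows on GRCm38.p6, of 250 bases before and 50 bases after the start of a gene, were at hand for 33 of the 41 members. The letters TTTCCCGC or TTTGGCGC, searched as the E2F motif on both strands, occurred in 7 of 15 S-phase members (46.7%), in 0 of 15 mitotic members (0.0%) and in 1.8% of all 27025 genes with such windows. The letters TTTGAA, searched as the CHR motif on both strands, occurred in 2 of 15 S-phase members (13.3%), in 11 of 15 mitotic members (73.3%) and in 20.2% of all genes. The letters CCAAT, on either strand, occurred in 60.0% of the S-phase members, 93.3% of the mitotic members and 41.1% of all genes. In the wider lists described at the end, the E2F letters occurred in 20.0% of further S-phase and 6.98% of further mitotic genes, the CHR letters in 25.7% and 69.8%, and the CCAAT letters in 57.1% and 65.1%, closer together than among the members. A match describes the letters only and was not tested as a binding site. The 250 bases before the start are shown for 2 helicase genes and for 2 mitotic genes, with every match in capitals (ATTGG is CCAAT and GCGCCAAA is TTTGGCGC on the other strand). Mcm6 lies at chr1:128359706-128359955 on the minus strand, Mcm5 at chr8:75109259-75109508 on the plus strand, Cdk1 at chr10:69352913-69353162 on the minus strand and Mki67 at chr7:135716380-135716629 on the minus strand.
Mcm6: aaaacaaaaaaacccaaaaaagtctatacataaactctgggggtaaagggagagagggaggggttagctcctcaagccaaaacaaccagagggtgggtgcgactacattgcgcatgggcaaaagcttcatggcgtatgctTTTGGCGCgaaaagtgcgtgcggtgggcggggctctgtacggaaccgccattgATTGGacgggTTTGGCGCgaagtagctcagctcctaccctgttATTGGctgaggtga
Mcm5: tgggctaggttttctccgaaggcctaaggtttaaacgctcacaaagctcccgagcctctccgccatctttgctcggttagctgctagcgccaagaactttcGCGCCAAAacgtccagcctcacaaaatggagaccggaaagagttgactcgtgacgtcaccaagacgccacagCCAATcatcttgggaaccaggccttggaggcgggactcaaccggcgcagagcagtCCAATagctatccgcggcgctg
Cdk1: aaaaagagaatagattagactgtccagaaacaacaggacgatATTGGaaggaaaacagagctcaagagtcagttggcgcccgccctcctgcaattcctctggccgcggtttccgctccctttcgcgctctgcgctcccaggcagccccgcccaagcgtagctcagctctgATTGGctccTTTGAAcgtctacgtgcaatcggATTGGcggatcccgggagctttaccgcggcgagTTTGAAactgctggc
Mki67: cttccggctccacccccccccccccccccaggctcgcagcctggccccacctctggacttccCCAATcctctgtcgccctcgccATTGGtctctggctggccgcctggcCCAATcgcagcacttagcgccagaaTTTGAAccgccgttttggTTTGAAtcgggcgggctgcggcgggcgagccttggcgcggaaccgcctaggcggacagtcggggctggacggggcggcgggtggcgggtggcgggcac
The Mcm6 promoter held the E2F letters 110 and 47 bases before the start, and the Cdk1 promoter held the CHR letters 71 and 15 bases before it. In the promoter of Mki67 the CHR letters began 116 and 98 bases before the start.

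The labelled cell type was checked before the cell cycle genes were read. Foxp3 had normalized counts of 2437 (PBS 1), 5068 (PBS 2), 4507 (TSLP 1) and 5041 (TSLP 2), and Ctla4, a Treg checkpoint receptor and the most-read marker of the Treg and T cell list, lay between 12251 and 14097. All 6 listed Treg and T cell markers were read in each library. Defining genes of other cells were at 0 in all 4 libraries, namely Pax5 of B cells, Mzb1 of plasma cells, Ncr1 and Klre1 of NK cells, Adgre1 of macrophages, S100a9 and Mpo of neutrophils, and the haemoglobin genes and Klf1 of erythroid cells. PBS 1 stood apart from the other libraries. It had the lowest Foxp3, and it was the lowest of the 4 libraries for 35.6% and the highest for 32.4% of the 11392 genes tested, against 20.4% to 23.4% for each of the other 3. Values without PBS 1 are therefore added. For sums whose direction changed against PBS 2 alone, the PBS 2 value is given. For genes and lists, fits without PBS 1 are added where a printed difference changed direction or a printed unadjusted p crossed 0.05. Such a fit has PBS 2 as its lone control, which is assumed to vary like the TSLP libraries, so its p-values rest on the spread between TSLP 1 and TSLP 2.

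After 3 h of TSLP, the summed level of the 41 genes was 13887 ± 1559 normalized counts, against 14427 ± 1881 with PBS (mean ± SD, n = 2), and the groups overlapped. PBS 2 alone summed to 13097, below the TSLP mean, so the direction changed without PBS 1. Cdk1, the kinase that starts mitosis, was the member that stood out, at a lower level in both TSLP libraries. In bulk RNA, fewer cells in a phase and less RNA per cell cannot be told apart for any of these genes. In the comparison of TSLP with PBS, limma on log2(normalized count + 1) called 0 of 41 members at an adjusted p under 0.05 (Benjamini-Hochberg over all genes tested), where it called 0.0% of all genes. The edgeR and DESeq2 tests on the recovered reads called 0 members as well. In data simulated with edgeR's estimate of the spread, these 2 tests found more of the changed genes than limma did. Without adjustment, 3 members, all lower with TSLP, had a p under 0.05 by limma, which gave such a p for 3.75% of all genes tested (1.69% higher, 2.06% lower). By edgeR and by DESeq2 it was 1 member, Cdk1, with 2.05% of genes by each tool (1.23% and 1.19% lower). The 3 by limma were Cdk1, E2f1 and Bub1. Without PBS 1 the members with such a p were Cdk1, lower, and the mitotic kinase genes Plk1 and Bub1b, both higher, beside 4.85% of all genes. With a trend over gene length removed there were 4, namely Cdk1 and Bub1, lower, and Ccnb2 and Stmn1, higher, beside 3.93% of all genes. Of the 41 members, 18 were higher and 23 lower with TSLP, and the median log2 difference was −0.027, beside 0.012 over all genes tested. Without PBS 1 the split was 24 higher and 17 lower, with a median of 0.12, beside −0.014 over all genes tested. The TSLP and PBS libraries did not overlap for 5 members that were higher and 5 that were lower, or 10 of 41, while 28.9% of genes tested did not overlap (14.5% higher, 14.4% lower).

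**Figure D1:**
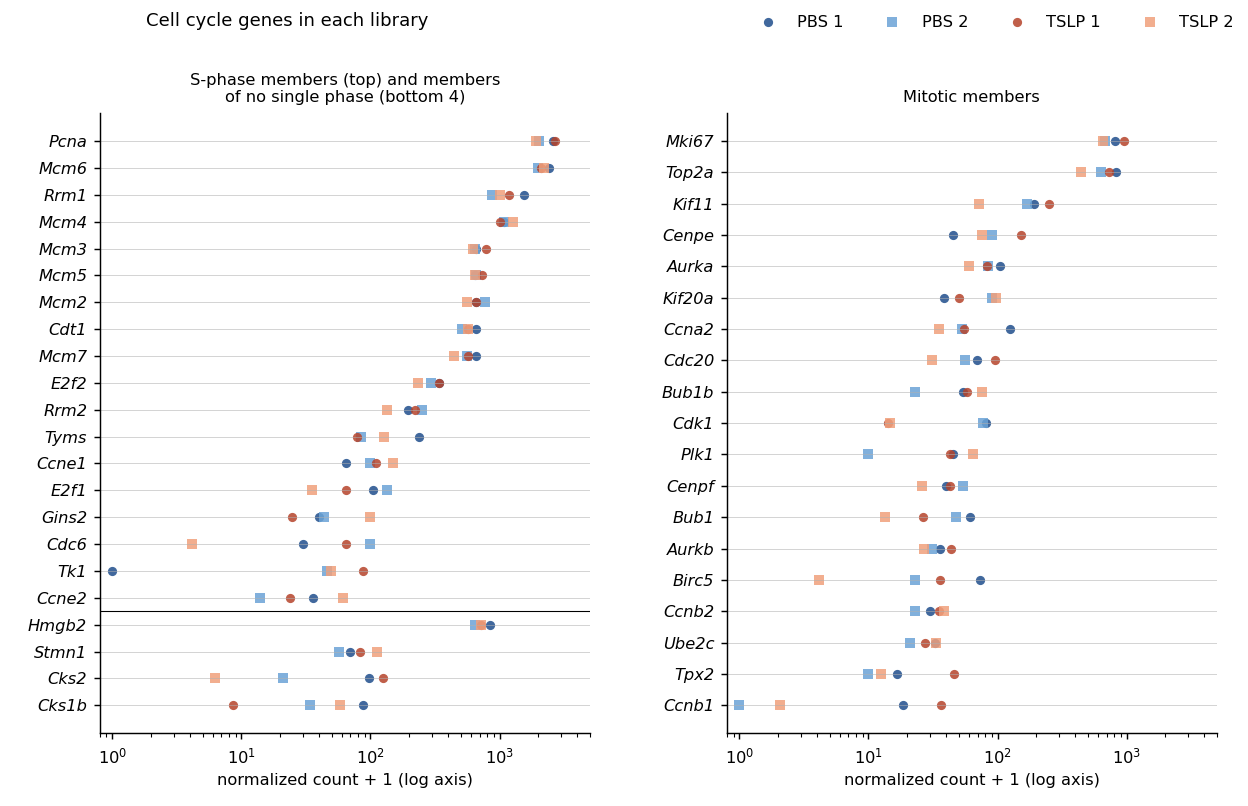
Normalized count + 1 (log axis) of the 41 cell cycle genes in each of the 4 libraries, with 1 row per gene. The helicase genes Mcm2 to Mcm7 and Pcna lie between 442 and 2667 with the 4 libraries close together, while most mitotic genes lie under 100 with the libraries of a group far apart, and Cdk1 has both TSLP libraries below both PBS libraries.

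The helicase and origin licensing genes were the most abundant set and the most even. Mcm6, a subunit of the replicative helicase (chr1:128331590-128359664, mm10) and the most abundant of the set per kilobase of exon, had normalized counts of 2422 and 1987 with PBS and of 2110 and 2198 with TSLP. Both TSLP libraries lay between the 2 PBS libraries, and the log2 difference was −0.027 ± 0.25 (SE, n = 2), or 0.12 without PBS 1. The 6 helicase genes Mcm2 to Mcm7 together summed to 5924 ± 297 normalized counts with PBS and 5801 ± 82.2 with TSLP (mean ± SD, n = 2), 2.08% apart. PBS 2 alone summed to 5714, below the TSLP mean, so the direction changed without PBS 1. The log2 differences of these 6 genes ran from −0.28 (Mcm7) to 0.091 (Mcm3). The loading factor Cdt1 was like them, with a log2 difference of −0.025, or 0.16 without PBS 1. Cdc6, the other loading factor, was scarce and uneven, with 29.1 (PBS 1), 98.0 (PBS 2), 63.1 (TSLP 1) and 3.14 (TSLP 2). The log2 difference of −1.75 ± 1.60 (SE) came from TSLP 2, and without that library it was 0.23. Gins2, a helicase cofactor, shares 67.3% of its exon bases with Gse1 on the opposite strand. Its reads cannot be told apart from those of Gse1 if the counting ignored strand. The same limit holds for smaller parts of Kif20a (29.3%, with Cdc23), Ube2c (22.8%, with Tnnc2), Ccne2 (17.4%, with Ints8) and Ccna2 (12.5%, with Exosc9). Some other members share less.

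The 5 genes of DNA synthesis and nucleotide supply summed to 3924 ± 932 normalized counts with PBS and 3741 ± 705 with TSLP (mean ± SD, n = 2). PBS 2 alone summed to 3265, below the TSLP mean, so the direction changed without PBS 1. Most of each sum came from Pcna, while the scarcer genes of the set differed more. Pcna (chr2:132249162-132253314), the member with the highest level per kilobase, had normalized counts of 2616 and 2019 with PBS and of 2667 and 1931 with TSLP. The first library of each group was high and the second low, the groups overlapped, and the log2 difference was −0.018 ± 0.32 (SE). The ribonucleotide reductase subunits Rrm1 and Rrm2, which make deoxyribonucleotides, had log2 differences of −0.078 and −0.36, and Tyms, thymidylate synthase, of −0.52. Without PBS 1, Rrm1 turned to 0.33 and Tyms to 0.23, and Pcna to 0.17. Of the 5 genes of this set 4 were lower with PBS 1 and 4 were higher without it. Tk1, the thymidine kinase of cycling cells, had no read in PBS 1, while PBS 2 had a normalized count of 45.0, TSLP 1 of 86.7 and TSLP 2 of 48.1. On the log2(normalized count + 1) scale its difference was 3.27 ± 2.07 (SE, unadjusted p of 0.194 by limma), the largest among the members. By edgeR and by DESeq2 it was 1.58, smaller than that of Cdk1, and without PBS 1 it was 0.51. The difference of Tk1 rested on PBS 1, the library that stood apart for other genes as well.

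Among the G1/S cyclins and E2F activators, E2f2 was the most abundant per kilobase, with 338 and 292 normalized counts with PBS and 339 and 232 with TSLP, and the groups overlapped. E2f1, the activator that switches on S-phase genes (chr2:154559407-154569892), had 104 and 134 with PBS and 63.1 and 34.5 with TSLP. Both TSLP libraries were below both PBS libraries, with a log2 difference of −1.32 ± 0.41 (SE). The unadjusted p was 0.0367 by limma, 0.0653 by edgeR and 0.0905 by DESeq2, and without PBS 1 it was 0.0871 by limma at a log2 difference of −1.50. The E-type cyclins, which carry cells into S phase, lay the other way, at 0.68 (Ccne1) and 0.77 (Ccne2) on the log2 scale with unadjusted p-values of 0.137 and 0.368 by limma, and Ccne1 did not overlap between the groups.

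Mitotic members were scarcer. The median level per kilobase of exon was 12.1 normalized counts for the 19 mitotic members and 83.2 for the 18 S-phase members, and 16 of the 19 had a mean normalized count under 100, against 5 of the 18. Mki67 (chr7:135689784-135716361), the Ki-67 protein that coats mitotic chromosomes, was the most abundant mitotic member by the mean of the 4 libraries. It had 805 and 683 normalized counts with PBS and 954 and 650 with TSLP. The TSLP libraries were the highest and the lowest of the 4, and the log2 difference was 0.086 ± 0.32 (SE). Top2a, the topoisomerase that untangles sister chromatids, had 830 (PBS 1), 637 (PBS 2), 734 (TSLP 1) and 443 (TSLP 2), with a log2 difference of −0.35 ± 0.38 (SE). Tpx2, a spindle assembly factor, had the largest difference of the kinetochore and spindle motor set at 0.90 ± 0.78 (SE), with 15.5 and 9.0 with PBS and 45.2 and 11.5 with TSLP. Only TSLP 1 stood above the rest for Tpx2.

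Cdk1 (chr10:69335146-69352938) had 80.4 and 76.0 normalized counts with PBS and 13.2 and 13.6 with TSLP, from 83, 76, 14 and 13 reads. The libraries of each group were close to each other, and the groups lay far apart. The log2 difference was −2.46 ± 0.23 (SE), the unadjusted p was 0.000675 and the adjusted p was 0.106 by limma with Benjamini-Hochberg adjustment. The SE was wider in other fits, at 0.83 by limma with a spread that follows the level and 0.98 by DESeq2. The unadjusted p was 0.0239 by edgeR, 0.00968 by DESeq2 and 0.0156 by limma with a spread that follows the level (0.913% of genes were lower at an unadjusted p under 0.05 in that fit), and adjusted over all genes by the Benjamini-Hochberg method these 3 tests gave 0.999 to 1.0. When each library was left out in turn, the log2 difference stayed between −2.50 and −2.42. The partners of Cdk1 lay on both sides of 0. The B-type cyclins Ccnb1 and Ccnb2, which activate it, had log2 differences of 1.01 and 0.48, and Ccna2, the A-type cyclin, of −0.89, and their unadjusted p-values by limma were 0.669, 0.162 and 0.194. Cdc20, which directs the destruction of these cyclins and was the most abundant of the set per kilobase, had 68.8 and 55.0 with PBS and 95.2 and 30.3 with TSLP, with TSLP 1 highest and TSLP 2 lowest.

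Of the 6 kinase, checkpoint and passenger complex genes of mitosis, 3 were higher and 3 lower, and Bub1 had an unadjusted p under 0.05 by limma. Bub1, a spindle checkpoint kinase (chr2:127801122-127831865), had 60.1 and 47.0 normalized counts with PBS and 25.4 and 12.5 with TSLP. Both TSLP libraries were below both PBS libraries, with a log2 difference of −1.52 ± 0.44 (SE). The unadjusted p was 0.0299 by limma but 0.207 by edgeR and 0.175 by DESeq2, and without PBS 1 it was 0.130 by limma at a log2 difference of −1.34. Its paralogue Bub1b had a log2 difference of 0.91, the other way, with an unadjusted p of 0.169 by limma, and without PBS 1 it was 1.53 with an unadjusted p of 0.0293. Plk1, the polo-like kinase of mitotic entry, had 44.6 and 9.0 with PBS and 41.5 and 63.7 with TSLP. PBS 2 was the low library for Plk1, whose log2 difference of 1.30 (unadjusted p of 0.214 by limma) became 2.39 against PBS 2 alone (unadjusted p of 0.0188). Aurka, the spindle pole kinase and the most abundant of the set per kilobase, had 103 and 84.0 with PBS and 82.0 and 59.6 with TSLP. Its groups did not overlap, at a log2 difference of −0.41 ± 0.30 (SE). Birc5, which encodes survivin of the chromosomal passenger complex, had 72.7 and 22.0 with PBS and 34.9 and 3.14 with TSLP. The groups overlapped for Birc5, at a log2 difference of −1.76 ± 1.32 (SE), which was −0.20 without TSLP 2 and −3.32 without TSLP 1.

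The sums of 3 marker lists did not overlap between the groups, and those of the other marker lists overlapped. Among single genes tested, 28.9% did not overlap. The 3 sums were lower with TSLP for myeloid cell genes and higher for Treg and T cell markers and for the scarce plasma cell genes. The 6 myeloid cell genes summed to 194 (PBS 1), 128 (PBS 2), 96.1 (TSLP 1) and 94.1 (TSLP 2) normalized counts. Cd68 was the most abundant in PBS 1, PBS 2 and TSLP 1 and Lyz2 in TSLP 2, Adgre1 was at 0 in every library, Csf1r had 27 reads in TSLP 2 and 0 or 1 in each of the others, and of the 3 genes that could be tested Cd68 and Itgam were lower and Lyz2 higher, of which only Itgam had an unadjusted p under 0.05 by limma (0.0117). Without PBS 1 that p was 0.0640, and Lyz2 turned from a log2 difference of 2.07 to −0.17, so that all 3 were lower. The 6 Treg and T cell markers summed to 34694 (PBS 1), 41578 (PBS 2), 42115 (TSLP 1) and 43328 (TSLP 2), with PBS 1 far below the other 3. All 6 had a positive log2 difference (median 0.16), and limma gave none of them an unadjusted p under 0.05. Without PBS 1 the difference was positive for 4 of the 6 (median 0.015). The part of these lists in the lower Cdk1, E2f1 and Bub1 was not tested.

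Of the 4 genes of no single phase, Hmgb2, a chromatin protein of dividing cells, was the most abundant, with 840 and 649 normalized counts with PBS and 718 and 722 with TSLP. Both TSLP libraries lay between the PBS libraries, and the log2 difference was −0.037, or 0.15 without PBS 1. Cks1b, a small subunit that binds cyclin-dependent kinases, had 86.3 and 33.0 with PBS and 7.54 and 57.5 with TSLP, and the log2 difference of −1.29 came from TSLP 1, and without that library it was 0.10. Its relative Cks2 ran from 5.23 (TSLP 2) to 124 (TSLP 1) within the TSLP group.

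**Figure D2:**
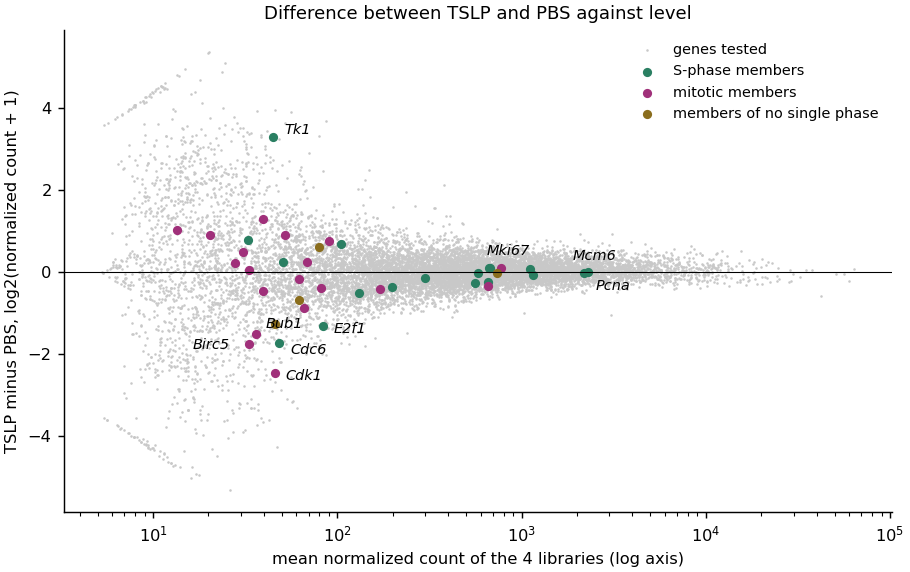
TSLP minus PBS on the log2(normalized count + 1) scale (vertical axis) against the mean normalized count of the 4 libraries (log axis), with the 11392 genes tested in grey and the members in colour. Members with large differences (Tk1, Cdk1, Cdc6, Birc5, Bub1, E2f1) lie at mean counts under 100, where grey points spread as widely.

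The size of a difference followed the level of the gene. Of the members, 9 differed by more than 2-fold, 3 higher and 6 lower, all with a mean normalized count under 100. That is 22.0% of the members against 12.3% of all genes tested, but among the 3218 genes tested with a mean under 100 the share was 40.2%, and 24 members are of that kind. The median fold between the 2 libraries of a group was 1.97 for genes tested with a mean under 100, 1.27 from 100 to 1000 and 1.16 above 1000. For members it was 1.87, 1.28 and 1.24.

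S-phase and mitotic genes were then compared as groups. Their medians of the log2 difference were −0.026 (7 higher, 11 lower) and 0.040 (10 higher, 9 lower). Without PBS 1 they became 0.11 and −0.030. Per kilobase of exon, the S-phase members summed to 3102 (PBS 1), 2671 (PBS 2), 3014 (TSLP 1) and 2645 (TSLP 2) normalized counts. For the mitotic members the same sum was 457 (PBS 1), 347 (PBS 2), 453 (TSLP 1) and 306 (TSLP 2). The S-phase sum was 2887 ± 305 with PBS and 2829 ± 261 with TSLP (mean ± SD, n = 2). The mitotic sum was 402 ± 77.4 with PBS and 379 ± 104 with TSLP, and in both cases the means differed by less than the SD within a group. In both sums PBS 2 alone was below the TSLP mean, so the direction changed without PBS 1. The mitotic sum was 14.7%, 13.0%, 15.0% and 11.6% of the S-phase sum in PBS 1, PBS 2, TSLP 1 and TSLP 2. The groups overlapped in each of these measures.

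**Figure D3:**
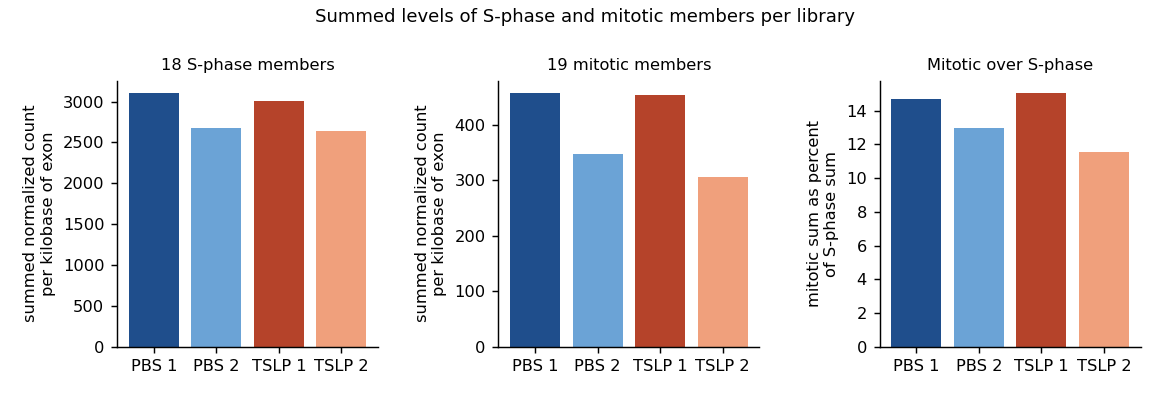
Summed normalized count per kilobase of exon of the 18 S-phase members (left) and the 19 mitotic members (middle), and the mitotic sum as a percent of the S-phase sum (right), with 1 bar per library and no error bars. In each panel replicate 1 is above replicate 2 with PBS and with TSLP, and the groups overlap.

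The libraries numbered 1 carried more RNA of the 19 mitotic members than those numbered 2, in both groups. PBS 1 was above PBS 2 for 16 of the 19 mitotic members, and TSLP 1 above TSLP 2 for 13. Both held for 11 (57.9%) and the opposite in both groups for 1, Kif20a, whereas 24.0% of all genes tested were higher and 25.6% lower in replicate 1 of both groups. Among S-phase members the counts were 6 of 18 and 3 of 18. Ccnb1, the main mitotic cyclin, had the widest spread of the mitotic members, with 17.4 and 0 normalized counts with PBS and 35.8 and 1.05 with TSLP, where the median size of the log2 difference between the 2 libraries was 0.44 with PBS and 0.70 with TSLP over the 19 genes. No source says that libraries of the same number were handled together. The wider list of mitotic genes did not share the pattern, with 25.0% higher and 22.7% lower in replicate 1 of both groups.

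**Figure D4:**
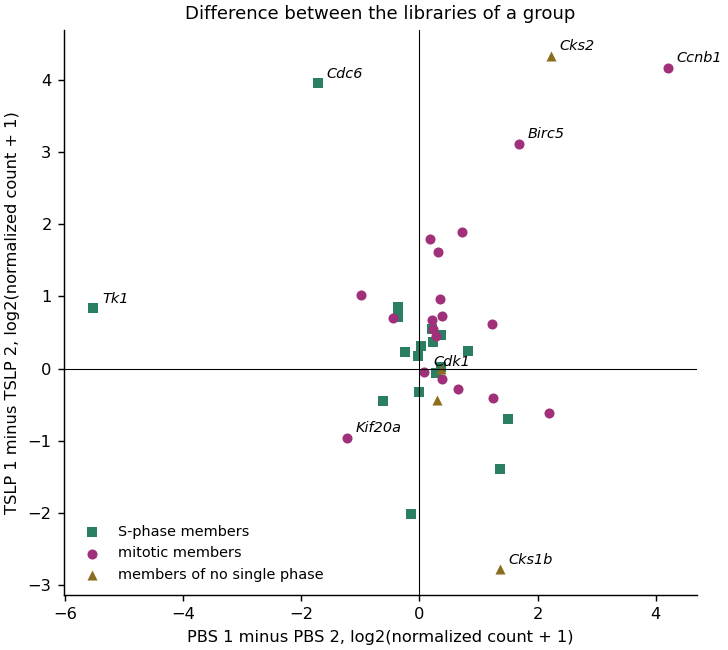
PBS 1 minus PBS 2 (horizontal axis) against TSLP 1 minus TSLP 2 (vertical axis), both on the log2(normalized count + 1) scale, with 1 point per member. Of the 19 mitotic members 11 lie in the upper right part, where replicate 1 is the higher library in both groups, and Cdk1 lies near the crossing of the axes.

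Further genes of the same processes were examined as lists. Of 48 more S-phase genes (origin recognition, polymerases, repair at the fork), all 48 could be tested, 22 were higher and 26 lower with TSLP, and the median log2 difference was −0.076. By limma, 1 of them in each direction had an unadjusted p under 0.05, beside 1.69% higher and 2.06% lower of all genes tested. The groups did not overlap for 5 higher and 8 lower genes of this list, beside 14.5% and 14.4% of all genes tested. Pola2, a subunit of the primase-polymerase complex, had normalized counts of 221 (PBS 1), 266 (PBS 2), 394 (TSLP 1) and 438 (TSLP 2), which gave a log2 difference of 0.77 with an unadjusted p of 0.0437. Orc6, a subunit of the origin recognition complex, had 281 and 261 with PBS, 153 and 155 with TSLP and a log2 difference of −0.81 with an unadjusted p of 0.0287. Neither overlapped between the groups, their unadjusted p-values without PBS 1 were 0.0956 and 0.0590 by limma, and both had an adjusted p above 0.99 by limma with Benjamini-Hochberg adjustment. Nasp, a histone chaperone and the most-read of this list, had 3431 and 2036 with PBS and 2372 and 1891 with TSLP, and its log2 difference of −0.32 became 0.057 without PBS 1.

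Of 51 more mitotic genes 44 could be tested, 24 of them higher and 20 lower, and the median log2 difference was 0.10. Here too 1 gene in each direction had an unadjusted p under 0.05 by limma, beside 1.69% higher and 2.06% lower of all genes tested. Aspm, which focuses spindle poles, had 30.0 and 33.0 normalized counts with PBS and 98.0 and 69.0 with TSLP (log2 difference 1.36 with an unadjusted p of 0.0126 by limma, or 0.0538 without PBS 1). Dlgap5, which stabilizes spindle microtubules, had 142 and 79.0 with PBS and 35.8 and 32.4 with TSLP (log2 difference −1.61 with an unadjusted p of 0.0166). These 2 spindle genes lay on opposite sides of 0, and their adjusted p-values by limma were 0.832 and 0.993 after Benjamini-Hochberg adjustment. Smc4, a condensin subunit that compacts chromosomes, made up 61.1% to 68.3% of the summed counts of this list, with 13331 and 14780 with PBS and 16066 and 16483 with TSLP. The sum of the list was 8.46% higher with TSLP than with PBS. For the list without Smc4, the sum was 8130 ± 497 with PBS and 7789 ± 201 with TSLP (mean ± SD, n = 2), and the groups overlapped. For that list PBS 2 alone summed to 7779, below the TSLP mean, so the direction changed without PBS 1. Kif14, a kinesin of cytokinesis, was read 15 times in TSLP 1, 9 times in TSLP 2 and in neither PBS library. Its TSLP mean was 3.98-fold a limit of 3 reads in each PBS library. That limit covers counting error only and not the spread between libraries, and Kif14 was below the filter for testing.

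Of 68 replication-dependent histone genes, 7 had enough reads to be tested, 4 higher and 3 lower, with a median log2 difference of 0.10, or 0.30 without PBS 1. By edgeR and by limma with a spread that follows the level, 0 of the 7 had an unadjusted p under 0.05. The lower Hist2h2be and Hist3h2ba, both H2B genes, had log2 differences of −1.28 and −1.08, with unadjusted p-values of 0.00824 and 0.0334 by limma (0.0291 and 0.111 without PBS 1), and both were at mean counts under 100.

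Of 24 regulators of these programmes, 0 had an unadjusted p under 0.05 by limma and 0 by edgeR. E2f4, the E2F factor of resting cells, had normalized counts of 1079 and 1054 with PBS and 1052 and 1049 with TSLP, close together in the 4 libraries. Rb1, the retinoblastoma protein that holds E2F factors in check, had 772 and 1336 with PBS and 1384 and 1395 with TSLP, and its relative Rbl2 had 745 and 1430 with PBS and 1249 and 1602 with TSLP. For both, PBS 1 was the low library, and without it the log2 differences of 0.45 and 0.45 became 0.057 and −0.015. Foxm1 and Mybl2, activators of the mitotic programme, had log2 differences of −0.097 and 0.13, or 0.047 and −0.13 without PBS 1. Rbbp4, a MuvB and chromatin subunit and the most-read of the list, lay between 3287 and 3732.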

How the data were processed

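Per the labels and the methods of the study, libraries were made with a directional kit, sequenced as 50-base single-end reads, mapped to mm10 with HISAT2 and counted with HTSeq 1.99.2. The annotation and the strand setting of the counting are not given in the sources used here. The deposited values are a signal, the read counts after the authors' division by library size factors (1.03, 0.999, 1.06 and 0.957), from which whole reads were recovered, within 0.01 of a read, for 100% of the values. For PBS 2, whose factor is nearly 1, the recovery could not be checked from the steps between values, and edgeR and DESeq2 rest on these reads. The authors used DESeq2 1.34.0. Libraries held 10271571 to 11761234 gene reads, and a gene without reads may hold up to 3 (counting error only).

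The 11392 genes that reached a normalized count of 10 in 2 or more libraries were tested on log2(normalized count + 1), TSLP minus PBS, two-sided, with limma 3.58.1 in R 4.3.3 and Benjamini-Hochberg adjustment over all genes tested. Differences of low genes on this scale depend on the pseudocount and can be smaller or larger than those of the count tests. The alternatives were edgeR 4.0.16 (quasi-likelihood, TMM) and DESeq2 1.42.0 on the recovered reads, other pseudocounts (0.5 and 5), filters and scalings, removal of a trend over gene length, a block for the replicate number and leaving out each library. A limma fit with a spread that follows the level was added after seeing the data. The procedures were tested on simulated data, with reads drawn from edgeR's trended spread in these data and no spread particular to a gene. That setting lies close to the models of limma with a trend, edgeR and DESeq2. There, limma without a trend called fewer of the changed genes than these tests at each size of change. It missed all of the smaller changes, so that its lack of calls does not show a lack of change. Exon lengths and positions came from GENCODE M21 on the mm10 assembly, and promoters from RefSeq.

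The members and lists were chosen with earlier results of these data known. Genes named are, in each of 7 role lists, the most abundant per kilobase and the most different, those with an unadjusted p under 0.05, set regulators and, where the spread between libraries is described, others picked for it after their values were seen. Calls are at an adjusted p under 0.05, and lists were described by counts and medians without a test.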

Additional observations from a re-analysis of the deposited data

How the results depend on the processing

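Depth and n = 2 limit these results. For genes with few reads the spread is wide, and edgeR's estimate of the biological coefficient of variation had a median of 82.5% for genes with a mean normalized count under 100, where 24 members lie, 25.8% from 100 to 1000 and 19.3% above. No member was called under any of the 16 alternatives, and Cdk1 kept its direction in each, with an unadjusted p under 0.05 in 12 of 13 settings with all libraries (0.000147 to 0.0530) and an adjusted p of 0.100 to 1.0 by Benjamini-Hochberg adjustment over all genes tested in limma, edgeR or DESeq2. With a pseudocount of 0.5, limma called 44 genes among all tested, none a member. Members with an unadjusted p under 0.05 numbered 1 by edgeR (beside 2.05% of all genes), 1 by DESeq2 (2.05%), 1 by limma with a spread that follows the level (1.69%) and 2 to 5 when a library was left out (3.43% to 11.1%, the highest without PBS 2), with Cdk1 among them each time. E2f1 and Bub1 kept such a p without TSLP 1 and lost it without each of the other 3 libraries. With the replicate number as a block, 0 members had an unadjusted p under 0.05 by edgeR, and 4 had by limma (Birc5, Bub1 and Cdk1 lower, Ccnb1 higher), where limma with the block gave 457 genes at an unadjusted p under 0.05 and 0 called. Deviations of same-numbered libraries did not correlate (0.000720 over 11392 genes), and no source pairs the libraries.

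Leaving out a library moved the median log2 difference of S-phase members from −0.18 to 0.11, of mitotic members from −0.63 (without TSLP 1) to 0.36, of mitotic minus S-phase members from −0.51 to 0.34, of the wider S-phase list from −0.18 to 0.0047 and of the wider mitotic list from −0.027 to 0.23. The last was 0.16 without a filter, 0.022 by edgeR and 0.023 by DESeq2. With the filter raised to a normalized count of 50, the median of mitotic members was −0.27. That of mitotic minus S-phase members was then −0.19, against 0.066 in the main fit. With the trend over gene length removed, these medians were −0.040 and −0.061, and the S-phase median was 0.021. Single genes changed sign without a library: Cdc20 (−0.998 to 0.62), Cdc6 (−3.72 to 0.23), Cks1b (−2.67 to 0.10), E2f2 (−0.44 to 0.11), Hmgb2 (−0.22 to 0.15), Mcm6 (−0.17 to 0.12), Mki67 (−0.19 to 0.36), Pcna (−0.25 to 0.21) and Tpx2 (−0.040 to 1.85). Cdc20 was 0.019 by edgeR and 0.020 by DESeq2, and with the trend over gene length removed Hmgb2 was 0.049, Mki67 −0.053 and Pcna 0.11. The cause of these changes was not tested.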

Other observations

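Markers of activated Treg cells and of resting T cells were measured beside the cell cycle genes. Among 10 genes of effector Treg cells, 6 were higher and 4 lower with TSLP (median log2 difference 0.093). Without PBS 1, 8 were higher and 2 lower (median 0.18). The summed normalized count of the 10 genes was 37349 (PBS 1), 31227 (PBS 2), 34764 (TSLP 1) and 35063 (TSLP 2), with Tnfrsf4 the most abundant per kilobase in each library. Among 7 genes of resting T cells, 4 were higher and 3 lower, with a median of 0.016. Without PBS 1, 5 were higher and 2 lower (median 0.068). The sum of the 7 genes was 42198 (PBS 1), 35277 (PBS 2), 37849 (TSLP 1) and 34997 (TSLP 2), with Ccr7 the most abundant per kilobase. The groups overlapped in both sums.

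Other cell types were scarce. CD8 T cell genes summed to 147, 84.0, 98.0 and 129 normalized counts in PBS 1, PBS 2, TSLP 1 and TSLP 2, and B cell genes to 6.78, 112, 55.6 and 100 in the same order. Plasma cell genes summed to 45.6, 5.0, 55.6 and 57.5, with Jchain at 0 in both PBS libraries and at 36.7 and 9.41 with TSLP.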
